A study of Mus musculus with 18 samples.

Results

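The genes described are the nuclear genes of oxidative phosphorylation in mouse spleen. They were chosen by symbol: names that begin with Nduf followed by a, b, c, s or v and a digit (complex I), the Sdh genes a to d (complex II), the Uqcr genes (complex III), Cox4 to Cox8 (complex IV) and Atp5 (complex V), with the Ndufaf assembly factors left out. The rule found 87 of the 19326 genes in the deposited table, of which 40 belong to complex I, 4 to complex II, 8 to complex III, 18 to complex IV and 17 to complex V. The rule reads symbols and no measured value, but the members were chosen with earlier results of these data known. Of the 87, 84 reached 1 FPKM in at least 3 libraries and were tested, in a fit over all 12969 genes that did so. FPKM scales the fragments sequenced from a gene by its length and by the mapped fragments of the library. The 3 members below that floor were Cox7b2, Cox8c and Ndufa11b.

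RNA sequencing was done on whole spleen of ICR mice, an outbred strain, aged 10 weeks, in 18 libraries that fall into 6 groups of 3. The control group is labelled with no agent. The animals labelled AOS had that agent, whose abbreviation the labels leave unexplained, at 10 mg/kg. HS stands for a high fat diet together with STZ (streptozotocin, a toxin of the insulin-producing beta cells). HS_AOS had that diet, STZ and AOS at 10 mg/kg, HS_AOSFMT had that diet and STZ with a faecal microbiota transplant (FMT) labelled by AOS at 10 mg/kg, and HS_conFMT had them with an FMT labelled control. So every group whose name begins with HS shares the diet and STZ. The question posed is how such transplants act on the spleen after diet and STZ. The labels leave unstated whether each library stands for its own animal, and p-values here rest on the spread among libraries, which may be technical.

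Oxidative phosphorylation makes most of the ATP of a resting cell. Complexes I and II pass electrons from NADH and succinate to ubiquinone, complex III passes them on to cytochrome c, complex IV hands them to oxygen, and the proton gradient that complexes I, III and IV build drives the ATP synthase, complex V. Most subunits are encoded in the nucleus and imported into mitochondria, a core set is encoded by mitochondrial DNA, and several complex IV subunits exist as tissue isoforms. Mature red cells carry no mitochondria, whereas the erythroblasts, dividing lymphocytes and myeloid cells of a mouse spleen do. The genes of mitochondrial DNA were not analysed here.

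The libraries summed to 666441 to 831448 FPKM and held 12221 to 12898 genes at 1 FPKM or more. Haemoglobin genes took 12.9% to 35.5% of that sum, 12.9% to 17.6% in HS_AOSFMT and 26.8% to 29.1% in HS. The 87 members took 1.43% to 1.82% of it, or 1.94% to 2.44% of the sum without haemoglobin genes. The markers of B cells (6 genes), T cells (5 of 6 genes), red pulp macrophages (6 genes) and erythroid cells (8 genes) were present in every group; the labelled tissue is spleen. In whole tissue, fewer cells of a type and less RNA per cell cannot be told apart, for every value that follows.

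The members with the highest mean level over the 18 libraries were subunits of complexes IV and V. Cox8a stood at 516 FPKM (443 to 575 over the libraries), Cox6a1 at 480 FPKM (403 to 555) and Atp5b, the catalytic beta subunit of ATP synthase, at 428 FPKM (383 to 480). In complex I the highest was Ndufa4 at 377 FPKM (322 to 481), a protein first assigned to complex I and later to complex IV. Uqcrh, the hinge protein of complex III, had a mean of 293 FPKM (223 to 320). Complex II had no member of such a level: its highest, the iron-sulphur subunit gene Sdhb, had a mean of 75.2 FPKM (66.8 to 82.9) and its lowest, the membrane anchor Sdhd, 54.1 FPKM (47.2 to 62.6).

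The nuclear core subunits of complex I, which carry the flavin, the iron-sulphur clusters and the quinone site, were expressed from 32.3 FPKM (Ndufs1) to 99.6 FPKM (Ndufs7). In complex III the lowest mean was that of Uqcrq, 46.2 FPKM (31.9 to 60.2). In complex V it was that of Atp5s at 5.91 FPKM (4.82 to 7.32), which matches the rule by its symbol but is not a subunit of the enzyme, and the lowest true subunit was Atp5k at 109 FPKM. Ndufa11b stood at 0 FPKM in all 18 libraries. It and Ndufb4b (0.842 FPKM on average) and Ndufb4c (18.5 FPKM) are near-identical copies of Ndufa11 and Ndufb4, so the division of reads between copy and parent gene is uncertain.

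**Figure D1:**
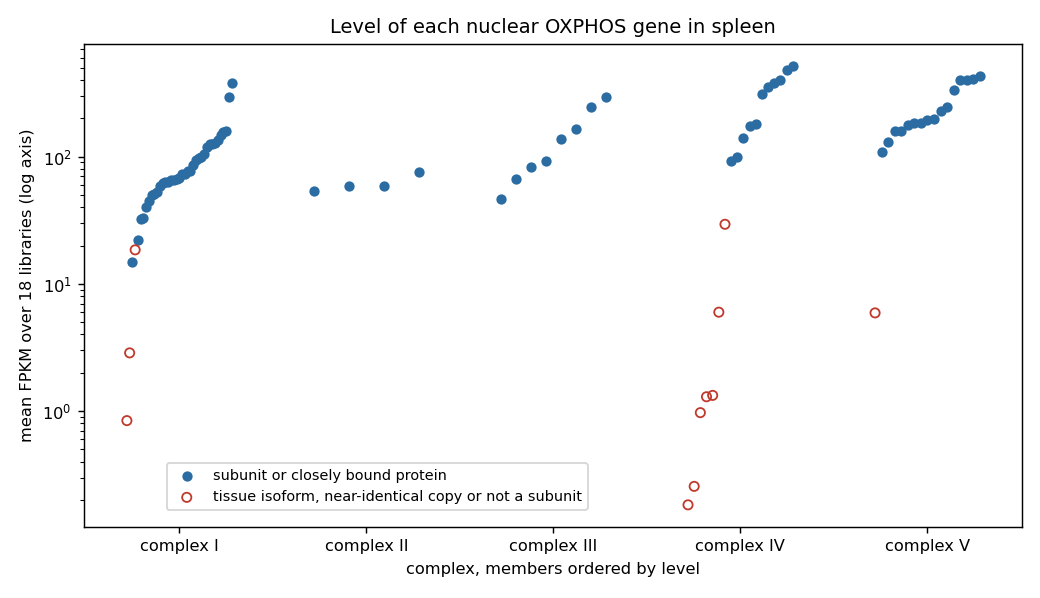
Mean FPKM of each member over 18 libraries (log axis), by complex and ordered by level; Ndufa11b, at 0 in all libraries, has no point. Filled points are subunits or closely bound proteins, open points are tissue isoforms, near-identical copies and Atp5s; the subunits of complex II lie between 54.1 and 75.2 FPKM, and Cox8a is highest at 516 FPKM.

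The isoforms that mark other tissues were far below the ubiquitous ones. Cox4i1 stood at 375.5 FPKM on average against 0.972 FPKM for Cox4i2, the oxygen-regulated isoform of lung. The heart and skeletal muscle isoforms Cox6a2, Cox7a1 and Cox8b had means of 5.99, 1.33 and 1.30 FPKM, against 480 FPKM for Cox6a1, 99.95 FPKM for Cox7a2 and 516 FPKM for Cox8a. Ndufa4l2, the hypoxia-induced relative of Ndufa4, averaged 2.87 FPKM. The testis isoform Cox6b2 was the exception, with 29.4 FPKM on average and 16.8 to 51.7 FPKM over the libraries, against 349 FPKM for Cox6b1. Of the genes that encode the same c-ring subunit of ATP synthase, Atp5g2 had 335 FPKM and Atp5g1 and Atp5g3 159 FPKM each.

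The other 2 testis isoforms were seen in control libraries alone. Cox8c stood at 0.83, 3.56 and 0.22 FPKM in controls 1, 2 and 3, and Cox7b2 at 0, 3.12 and 0.18 FPKM. Both were listed at 0 in each of the 15 libraries of the other groups. Transcripts of spermatids moved with them: the summed level of Prm1, Prm2, Tnp1 and Tnp2, the protamines and transition proteins of sperm chromatin, was 31.1, 251 and 16.3 FPKM in controls 1, 2 and 3 and 0.31 to 2.35 FPKM in the other 15 libraries. Control 2 was highest for all 6 genes. The part of such transcripts in other values of control 2 was not tested.

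The members varied less between libraries than the average gene. Over the 18 libraries the median SD of log2(FPKM + 1) was 0.13 for the 84 members tested and 0.17 for all genes tested, and among genes of at least 10 FPKM on average it was 0.13 (77 members) and 0.15 (7224 genes). Differences between groups made up 34.9% of a member's variance in the median, against 42.1% for all genes tested. This share is not corrected for the number of groups. With 6 groups of 3 libraries it is sizeable even where no group differs, so it does not measure a group effect. These are descriptions, with no test.

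Controls 1 and 3 stood apart, in opposite directions. Control 1 was the highest of the 18 libraries in 31 of the 84 members, and control 3 the lowest in 40. In control 3, 76 of the 84 members lay below the mean of controls 1 and 2, by a median of -0.32 on the log2 scale, while the median over all genes tested was +0.085 and 39.6% of them were lower. In 71 of the 84 members (84.5%) control 3 was below both other controls, as in 30.35% of all genes. Ndufs6, a complex I subunit next to the iron-sulphur clusters, stood at 81.4, 74.0 and 44.8 FPKM in controls 1, 2 and 3, and control 3 was the lowest of the 18 libraries. Cox4i1, at 408, 394 and 300 FPKM in the same controls, had the same order. Sdha, the flavoprotein of complex II, did not follow: it was at 55.4, 58.2 and 65.3 FPKM, and control 3 was the highest of all libraries.

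This deviation moved with coding length among the members and among all genes. The median difference of control 3 from controls 1 and 2 was -0.42 for the 23 members with up to 300 coding bases, -0.33 for the 28 longer ones of up to 500, -0.26 for the 20 beyond that of up to 1000 and -0.05 for the 10 beyond that of up to 2000; 1 member was longer and had -0.21. Among all genes of at least 10 FPKM it ran from -0.26 (171 genes of up to 300 bases) to +0.21 (1780 genes of over 2000 bases). Between these it was -0.18 for genes of up to 500 bases, -0.03 up to 1000 and +0.09 up to 2000. In every length bin the members' median was below that of all genes. What causes the difference was not tested. For each comparison of the members with the control group, values without control 3 are given beside those with it. They keep control 1, which deviated the other way, and are not corrected values.

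**Figure D2:**
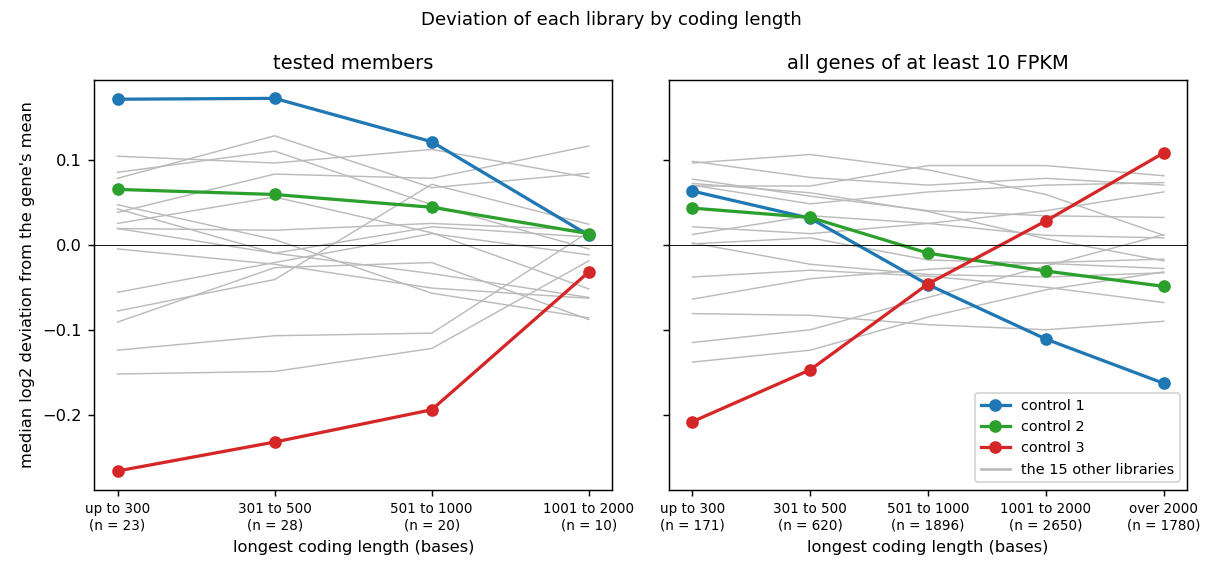
Median deviation of each library from the gene means, log2(FPKM + 1), against the longest coding length in bases, for the members tested (left; bins with fewer than 5 members left out) and for all genes of at least 10 FPKM (right). Control 3 lies lowest for short genes and rises with length in both panels, and control 1 falls with length among all genes.

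Most members moved together from library to library, and pooled pairs within and between complexes were alike. Over the deviations of 18 libraries from their group means, the median Pearson r between 2 of the 77 members with at least 10 FPKM was 0.50 within a complex (886 pairs) and 0.50 between complexes (2040 pairs). All pairs share the same libraries, and short genes share the deviation of control 3. Ndufs6 had the highest median r with the other members, 0.74, and its nearest member was Uqcrfs1, the Rieske protein of complex III, at 0.92. Sdha (median -0.56), Ndufa10 (-0.41), Cox7a2l (-0.31), an assembly factor of respiratory supercomplexes, Sdhb (-0.12) and Ndufb4c (-0.055) had negative medians. The complexes were not all alike. In complex II the other members, Sdhd and Sdhc, had 0.455 and 0.40, and complex III ran from 0.20 (Uqcrc2) to 0.73 (Uqcrq). The median r of Atp5k was 0.15.

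**Figure D3:**
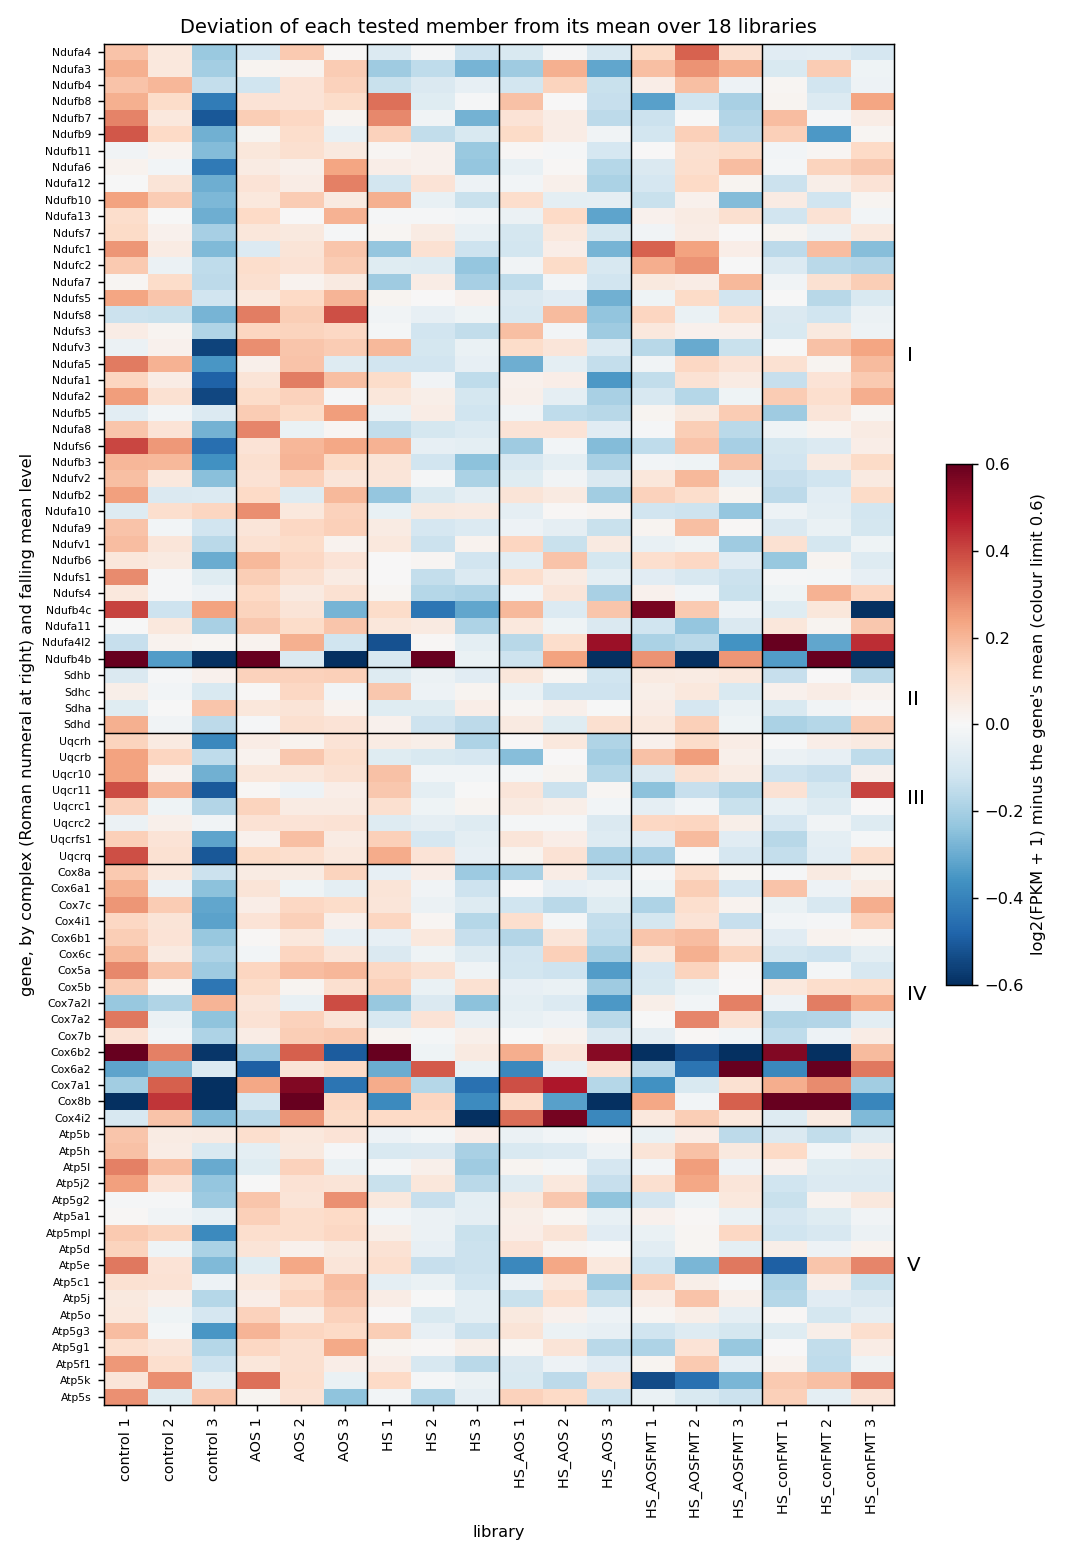
Deviation of log2(FPKM + 1) of 83 of the 84 members tested from each gene's mean over 18 libraries, with colours limited at 0.6 in either direction; rows are ordered by complex and falling level, columns by group. Control 3 is blue in most rows, and the Atp5k row is blue in the 3 HS_AOSFMT libraries.

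The clearest difference among the members concerned Atp5k, the gene of ATP synthase subunit e (also named Atp5me), a small membrane protein at the interface where ATP synthase monomers pair into dimers. Its level was 73.9, 78.7 and 88.8 FPKM in the HS_AOSFMT libraries, 120, 122 and 133 FPKM in HS_conFMT, and 117, 107 and 105 FPKM in HS. In the remaining groups it was 113, 131 and 103 FPKM (control), 135, 115 and 105 FPKM (AOS), and 101, 96.5 and 114 FPKM (HS_AOS). All 3 HS_AOSFMT libraries lay below each of the other 15, the lowest of which was HS_AOS 2.

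Against HS_conFMT, which had the same diet and STZ and an FMT labelled control, Atp5k fell by 0.63 on the log2(FPKM + 1) scale (SE 0.11, 95% interval -0.86 to -0.40, 0.646-fold; limma adjusted p = 0.0053). Against HS it fell by 0.45 (SE 0.11, 0.734-fold; adjusted p = 0.0241), and against control by 0.52 (SE 0.11, 0.698-fold; adjusted p = 0.00963). These 3 comparisons share the HS_AOSFMT libraries. By the limma F test over the 6 groups, Atp5k was the 1 member called (adjusted p = 0.0242), against 5.08% of all genes tested. An unadjusted p under 0.05 was reached by 12 members (14.3%) and by 25.2% of all genes. Of the members with the 2 smallest p in each complex, the others had an adjusted p of 0.063 for Ndufs8 and 0.0982 for Ndufa10 in complex I, 0.139 for Uqcrc2 and 0.179 for Uqcrb in complex III, 0.144 for Sdhb and 0.511 for Sdhc in complex II, 0.196 for Atp5b in complex V, and 0.208 for Cox5a and 0.238 for Cox7a2l in complex IV. The call against HS_conFMT held in every alternative run, with adjusted p between 0.00276 and 0.0343, and in each fit without 1 of the 6 libraries. The call against HS was lost when HS 1 (adjusted p = 0.0986), HS 3 (0.0533), HS_AOSFMT 1 (0.103) or HS_AOSFMT 2 (0.0643) was left out, with equal totals (0.0984), and with the erythroid (0.217), acinar (0.307) or proliferation (0.0543) level as a covariate. The same call was also lost without HS 1, HS_AOS 1 and control 1 together. The call against control was lost with equal totals (0.0541) and with the erythroid (0.0546) or proliferation (0.0549) level as a covariate, and in a fit of those groups alone (0.0763). The F test gave no call when any 1 HS_AOSFMT library was left out (adjusted p of Atp5k 0.0675 to 0.137). Atp5k also lost the F test call with equal totals (0.126), without HS 1, HS_AOS 1 and control 1 (0.053) and with the acinar covariate (0.0669), where Ndufa10 was called in its place (0.042).

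Other values moved in the same libraries. The T cell markers summed to 383 to 469 FPKM in HS_AOSFMT and 297 to 406 FPKM in HS_conFMT, the erythroid markers to 57112 to 98597 and 65456 to 194423 FPKM, the proliferation markers to 280 to 449 and 243 to 589 FPKM, and the pancreatic acinar markers to 2.50 to 35.4 and 43.7 to 2636 FPKM. Neutrophil markers summed to 1172 to 1645 FPKM against 615 to 980 FPKM (8 of 8 higher, median 0.68, 0 called and 0 at an unadjusted p under 0.05), and red pulp macrophage markers to 388 to 460 against 468 to 604 FPKM (1 of 6 called higher, 2 lower). The acinar, neutrophil and red pulp macrophage sums did not overlap between the groups, and the other sums did. With the erythroid, acinar or proliferation level as a covariate, the Atp5k changes against HS_conFMT were -0.632, -0.616 and -0.615 (limma adjusted p = 0.00746, 0.028 and 0.00276). A covariate fit cannot tell a marker level from the group where both move together, as the acinar level did. In HS, the T cell markers summed to 258 to 328 FPKM, the erythroid markers to 155581 to 179914 FPKM and the acinar markers to 1819 to 16113 FPKM, with no overlap with HS_AOSFMT in any of them. The T cell, neutrophil and red pulp macrophage levels were not used as covariates. The part of any marker level in the Atp5k change was not tested.

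**Figure D4:**
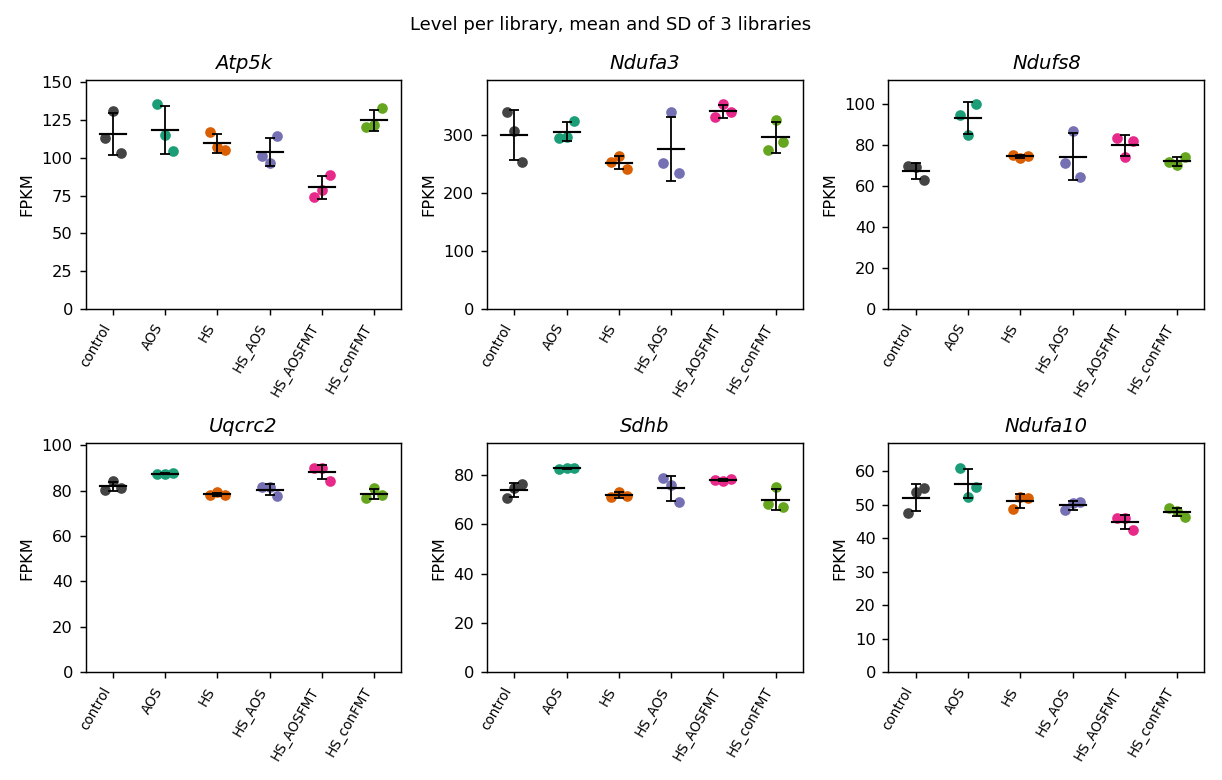
FPKM per library (points), with the mean and SD of 3 libraries (bars), for 6 members with small p in the comparisons. Atp5k lies between 73.9 and 88.8 FPKM in HS_AOSFMT and at 96.5 FPKM or more in all other libraries, whereas Sdhb, Uqcrc2 and Ndufs8 are highest on average in AOS or HS_AOSFMT.

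Besides Atp5k, 1 member was called in HS_AOSFMT against HS, where 1197 of all genes tested (9.23%) were called. The number of genes called was 203 to 751 when 1 library was left out (1.57% to 5.79%), 18 when the erythroid level entered as a covariate and 14 when the acinar level did. Ndufa3, a small accessory subunit in the membrane arm of complex I, stood at 331, 352 and 338 FPKM in HS_AOSFMT and at 252, 263 and 240 FPKM in HS, with no overlap, and rose by 0.43 (SE 0.12, 1.35-fold; limma adjusted p = 0.0417). Its level in HS_conFMT, 274, 325 and 287 FPKM, and in control, 338, 305 and 254 FPKM, spanned the gap. The call was lost in each of the 6 fits without 1 library (adjusted p 0.0659 to 0.117), under median-ratio scaling (0.137), without haemoglobin genes (0.0779), under quantile normalization (0.0538), with no filter on low values (0.0589), without HS 1, HS_AOS 1 and control 1 (0.0932), and with the erythroid (0.385), acinar (0.225) or proliferation (0.0923) level as a covariate.

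For the whole set, 2 of 84 members called stood beside that 9.23%, and 10 of 84 (11.9%) had an unadjusted p under 0.05, against 28.0% of all genes tested. The median change of the members was 0.03 and that of all genes 0.10. The sign of the members' median depended on the scaling: it was -0.07 with median-ratio scaling, -0.05 with haemoglobin genes left out and 0.165 with equal totals, where the median of all genes was -0.003, 0.014 and 0.219. Under each scaling the members' median was below that of all genes. Ndufc2, a complex I subunit, and Atp5h, a peripheral stalk subunit, had changes of 0.29 and 0.23 (adjusted p = 0.0564 and 0.059), and the lower side held Ndufa10 at -0.18 and Cox6b2 at -0.845 (adjusted p = 0.118 and 0.134). The 95% interval of the change lay within 0.5 on the log2 scale (1.41-fold) in either direction for 69 of the 84.

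Against HS_conFMT, Atp5k was the single member called, where 759 genes (5.85%) were; 199 to 1201 genes were called when 1 library was left out. An unadjusted p under 0.05 was reached by 15 of 84 members (17.9%) and by 22.75% of all genes, and the interval was within 0.5 for 68. The members next in order were Ndufc2 (0.30, adjusted p = 0.0628), Uqcrc2, a core protein of complex III (0.16, 0.0867), and Ndufa4 (0.26, 0.125) on the higher side, and Ndufa11 (-0.23, 0.12) and Ndufv3, the small flavoprotein-arm subunit (-0.34, 0.129), on the lower side. Uqcrc2 stood at 89.95, 90.1 and 84.4 FPKM in HS_AOSFMT and 76.8, 81.2 and 77.9 FPKM in HS_conFMT. The groups did not overlap. Its exons share 504 bases with Pdzd9 on the opposite strand, and with no strand setting given for the counting the reads of both genes cannot be told apart there. By complex, the median change was 0.02 for complex I, 0.065 for complex II, 0.06 for complex III, -0.05 for complex IV and 0.05 for complex V. Over all members the median was 0.02, and its sign depended on the scaling: -0.06 under median-ratio scaling, -0.065 without haemoglobin genes, -0.03 under quantile normalization and 0.125 with equal totals.

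Against control, Atp5k was again the single member called, beside 12% of all genes (1558). An unadjusted p under 0.05 was reached by 5 members (5.95%) and by 31.87% of all genes. Without control 3, 9 members were called, all lower in HS_AOSFMT, where 26.1% of all genes were called and 6.3% were called lower. They were Ndufs6 (-0.39), Ndufa2 (-0.27), Ndufb8 (-0.37), Ndufb10 (-0.32) and Ndufs1 (-0.23) of complex I, Uqcr11 (-0.49) and Uqcrq (-0.34) of complex III, Cox6b2 (-1.21) of complex IV and Atp5k (-0.595), named after their values were seen. Without control 1, Atp5k was the 1 member called in HS_AOSFMT, where 3.72% of all genes were called. HS and HS_conFMT had 0 members called against control without control 3 as well. With control 3 included, Ndufs8 (0.24, adjusted p = 0.097; 0.19 without control 3) and Ndufa10 (-0.21, adjusted p = 0.0677; -0.17) followed Atp5k. Cox6b2 had -0.815, Ndufc2 0.17 (0.10 without control 3) and Uqcrc2 0.10 (0.098 without control 3, -0.009 under median-ratio scaling).

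Under diet and STZ alone no member was called against control, where 2 of the 12969 genes were (0.0154%). Against 6.4% of all genes, 1 member (1.19%) had an unadjusted p under 0.05. That member was Atp5h, at 384, 386 and 358 FPKM in HS and 463, 423 and 385 FPKM in control, with a change of -0.17 (SE 0.07, adjusted p = 0.744; -0.235 without control 3). The groups overlapped between 385 and 386 FPKM. Next on that side came Ndufa3 (-0.24, adjusted p = 0.81; -0.35 without control 3) and Atp5s (-0.21; -0.185). The higher side rested largely on control 3: Ndufv3 had 0.205 with it and 0.02 without it, Ndufs8 0.15 and 0.10, and Cox5b 0.16 and -0.016. Of the 84 members, 35 had a positive change and the median was -0.03, against -0.015 for all genes; without control 3, 10 were positive and the median was -0.14. With all controls, 74 intervals lay within 0.5, so a change above 1.41-fold in either direction was outside the interval for those 74.

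AOS given with diet and STZ moved no member past the threshold against HS. No gene at all was called (0%), and 674 genes (5.2%) and 1 member (1.19%) had an unadjusted p under 0.05. Of the 84 changes, 42 were positive, with a median of 0.00. The member was Cox5a, the subunit of complex IV that faces the matrix, at 166, 164 and 142 FPKM in HS_AOS and 195, 191 and 176 FPKM in HS. All 3 HS_AOS libraries were below HS, and the change was -0.255 (SE 0.12, adjusted p = 0.955). Sdhc, a membrane anchor of complex II, was next at 57.6, 54.21 and 54.15 FPKM against 66.3, 57.9 and 59.8 FPKM, again without overlap (-0.145; adjusted p = 0.957). Ndufs5 had -0.16, also without overlap. Groups of 3 can separate by chance, and the share of all genes that did so was not counted. On the higher side stood Ndufa4l2 (0.34), Cox4i2 (0.36) and Ndufc2 (0.13). The interval was within 0.5 for 74 members.

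The transplant labelled control gave no call among the members against HS, where 1 gene was called (0.00771%). Against 6.3% of all genes, 4 members (4.76%) had an unadjusted p under 0.05. They were Ndufs4 (0.22), a subunit of complex I whose loss in mice causes a mitochondrial encephalopathy, Cox7a2l (0.35), Ndufa7 (0.19) and Atp5h (0.17). Cox7a2l stood at 137, 173 and 163 FPKM in HS_conFMT and 119, 132 and 117 FPKM in HS, without overlap (adjusted p = 0.736). Its level across all 18 libraries ran from 110 to 183 FPKM. On the lower side, Cox5a had a change of -0.20 and Atp5b of -0.10. Against control, 5 genes (0.0386%) and no member were called. An unadjusted p under 0.05 was reached by 11.7% of all genes and by 2 members (2.38%). These members were Atp5b (-0.19, adjusted p = 0.3) and Ndufv3 (0.325, adjusted p = 0.376). Without control 3, Atp5b had -0.21 and Ndufv3 0.14. Next in order were Ndufa6 (0.235; 0.09 without control 3) and Cox6a2 (0.61; 0.68) on the higher side and Ndufs5 (-0.18; -0.29) and Ndufb4c (-0.44; -0.405) on the lower side. Without control 3, 16 of the 84 members had a positive change and the median was -0.11, in place of 36 and -0.02.

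In the AOS group most members had higher means than in control, but no member was called, where 1 gene was (0.00771%). The change was positive for 73 of the 84 members (86.9%) and for 62.55% of all genes, and the medians were 0.095 and 0.046. This lean rested on control 3: without it, 36 members were positive and 48 negative, with a median of -0.03. Without control 1 or control 2, the median was 0.16 or 0.11. With all controls, the members' median also moved with scaling, to 0.037 under median-ratio scaling and 0.14 with equal totals. The median of all genes moved too, to -0.005 and 0.089, and lay below the members' median under each scaling.

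Cell type markers moved between the same groups. Plasma cell markers were higher in AOS for 6 of 6 genes (median 0.93, 6 at an unadjusted p under 0.05), with sums of 1275 to 1595 FPKM against 592 to 1121 FPKM in control. Neutrophil markers were lower for 8 of 8 (median -1.96, 8 at an unadjusted p under 0.05), with sums of 438 to 1136 FPKM against 642 to 12282 FPKM. T cell markers were higher for 5 of 5 (median 0.40, 3 at an unadjusted p under 0.05), with sums of 320 to 355 FPKM against 190 to 330 FPKM. Sperm markers were lower for 4 of 4 (median -3.19, 4 at an unadjusted p under 0.05). By the limma adjusted p, 0 genes of these 4 lists were called, and their part in the members' values was not tested.

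The smallest p belonged to Ndufs8, a core iron-sulphur subunit of complex I encoded at chromosome 19, positions 3908863 to 3912774 (GRCm38, minus strand). It stood at 94.5, 84.5 and 99.7 FPKM in AOS and 69.6, 69.3 and 62.7 FPKM in control, and the AOS libraries also lay above HS (75.0, 73.4 and 74.7 FPKM). The change from control was 0.46 (SE 0.095; 95% interval 0.26 to 0.66, 1.38-fold), and the limma adjusted p was 0.12. It did not pass the threshold in any alternative (adjusted p 0.0705 to 0.709), and the change was 0.41 without control 3. With diet and STZ present, Ndufs8 in HS_AOS spread from 64.4 to 86.9 FPKM, around the HS values.

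In AOS against control, 7 members (8.33%) and 11.3% of all genes had an unadjusted p under 0.05. Besides Ndufs8, the other 6 members were Ndufv3 (0.39), Ndufb5 (0.23) and Ndufa11 (0.19) of complex I, Sdhb (0.16) and, in complex V, Atp5g2 (0.25) and Atp5a1 (0.14), the alpha subunit. Without control 3 the changes were 0.20 for Ndufv3, 0.22 for Ndufb5, 0.12 for Ndufa11, 0.19 for Sdhb, 0.18 for Atp5g2 and 0.13 for Atp5a1. Sdhb stood at 82.5, 82.7 and 82.9 FPKM in AOS, 70.5, 74.7 and 76.3 FPKM in control, 71.0, 73.1 and 71.6 FPKM in HS, and 77.8, 77.7 and 78.4 FPKM in HS_AOSFMT. It spread more widely in HS_AOS, at 78.8, 75.7 and 69.1 FPKM, and in HS_conFMT, at 68.1, 75.1 and 66.8 FPKM. The AOS libraries lay above control without overlap (adjusted p = 0.365). Atp5a1 was at 273, 266 and 269 FPKM in AOS and 248, 243 and 240 FPKM in control, also without overlap (1.105-fold; adjusted p = 0.352). On the lower side, Atp5s had -0.17 (-0.15 without control 3), Ndufb4c -0.20 (-0.16) and Cox6b2 -0.32 (-0.71), the last at 0.022 without control 1.

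The difference between both AOS effects, with and without diet and STZ, was tested as an interaction. No member passed it and 1 gene did (0.00771%). Against 5.97% of all genes, 3 members (3.57%) had an unadjusted p under 0.05: Ndufs8 (-0.48, adjusted p = 0.49), Ndufb5 (-0.305, 0.705) and Sdhc (-0.21, 0.835). Without control 3 these were -0.43, -0.29 and -0.17. The smallest p on the positive side were those of Atp5s (0.30; 0.28 without control 3), Ndufb4c (0.50; 0.47) and Atp5h (0.10; 0.17). The median was -0.10 with 19 of 84 positive, and 0.01 with 44 positive once control 3 was left out. The interval lay within 0.5 for 51 members and reached beyond it for the rest.

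The genes that build and supply the complexes were counted from lists of assembly factors, regulators, importers and TCA cycle enzymes. In HS_AOSFMT against HS, 2 of 14 tested assembly factors of complex I and 2 of 4 of complex II rose, beside the 9.23% of all genes called in either direction. None of the 5 factors tested for complex III, 18 for complex IV and 3 for complex V was called, with 3, 4 and 2 at an unadjusted p under 0.05. Of all genes tested, 1048 were called higher and 149 (1.15%) lower, and 0 factors of any complex were called lower. Calls in these lists were not run through the alternatives. Ndufaf4, an assembly factor of complex I, rose by 0.53 (SE 0.07, adjusted p = 0.0018), and against HS_conFMT by 0.59 (adjusted p = 0.00071). Sdhaf1 and Sdhaf2, which insert the iron-sulphur clusters and the flavin of succinate dehydrogenase, rose by 0.63 and 0.39 (adjusted p = 0.00683 and 0.0115), and the 4 subunits of complex II had changes between -0.047 and 0.147 with 0 called.

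Of 14 tested regulators of mitochondrial biogenesis, 3 rose against HS: Polg, the mitochondrial DNA polymerase, from 20.9 ± 0.915 to 27.1 ± 0.402 FPKM (SD, n = 3; 0.36, limma adjusted p = 0.0097), Gabpb1 (0.29, adjusted p = 0.0263) and Tfb2m (0.30, adjusted p = 0.0453). Nrf1, which encodes the factor NRF1, had a change of -0.07. Against the 9.23% of all genes called, 2 of 16 TCA cycle genes rose, Dld (0.31, adjusted p = 0.0127) and Pdhb (0.25, adjusted p = 0.0277), and of 15 import genes and chaperones 0 did, with 1 at an unadjusted p under 0.05. Of the subunits and partners that the symbol rule does not reach, 5 were tested and 0 called: Cycs, cytochrome c, had 0.26 (adjusted p = 0.0679), Cyc1 -0.03 and Atpif1, the inhibitor of the ATP synthase, -0.515. Against HS_conFMT, where 5.85% of all genes were called, the calls among the same lists were 1 of 14 regulators, 3 of 16 TCA cycle genes, 1 of 15 import genes and chaperones, and 1 of 14, 1 of 4 and 1 of 18 assembly factors of complexes I, II and IV. Polg (0.26, adjusted p = 0.0449), Dld (0.33, 0.00987), Suclg1 (0.34, 0.0267), Sucla2 (0.24, 0.0422), the chaperone gene Hspe1 (0.715, 0.0207), Sdhaf2 (0.35, 0.0196) and the complex IV factor Cox16 (0.34, 0.0323) were called higher, beside Ndufaf4.

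Within groups, 13 members rose with the proliferation level, the mean log2 level of Mki67, Top2a, Cdk1, Ccnb1, Ccnb2 and Birc5, where 9.75% of all genes did, and 2 fell, where 29.6% of all genes did (limma with group and level as terms, 18 libraries, adjusted over all genes). Members that rose were 15.5% of 84 and those that fell 2.38%. The steepest was Cox6b2, with 1.09 log2 units per unit of the level (SE 0.17, adjusted p = 0.000295). It stood at 51.7 FPKM in control 1, where that level was highest (6.73), and at 17.02 FPKM in HS_conFMT 2, where it was lowest (5.15). The slope was 1.00 without control 1 and 0.95 without control 3. Cox6a2 (-0.95) and Cox7a2l (-0.35) fell.

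Ndufb9 (0.47), Ndufb10 (0.32), Ndufv1 (0.26), Cox6a1 (0.275) and Atp5f1 (0.23) also rose with the proliferation level and, with Cox6b2, were the 6 members that did so without control 1 and likewise without control 3. These are 7.14% of the members, where 8.18% of all genes rose without control 1 and 8.58% without control 3. The other 7 were called in the full set alone. With the neutrophil level, 30 members rose (6.4% of all genes) and 0 fell (13% of all genes), but 0 rose without control 1, whose neutrophil markers summed to 12282 FPKM against 435 to 3279 FPKM elsewhere, and 0 without control 3 (26 and 6 at an unadjusted p under 0.05). The share of all genes that rose was then 0.239% and 0.278%.

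With all 18 libraries, most members called with the lymphocyte levels fell, at shares near those of all genes. With the B cell level 1 member, Cox7a2l, rose (30.9% of all genes) and 11 fell (13.1% of members, 9.68% of all genes). With the T cell level 0 rose (20% of all genes) and 7 fell (8.33% of members, 8.88% of all genes). Cox6b2 was the steepest in both, at -1.74 and -1.59. Without control 1, 3 members fell with the B cell level (7.45% of all genes) and 0 with the T cell level (4.77%), while 1 rose with each. Without control 3, 4 fell and 2 rose with the B cell level (7.95% and 24.2% of all genes). With the T cell level 2 then fell and 0 rose (5.6% and 9.52% of all genes). With the erythroid level 0 members were called (0% of all genes in either direction), and with the acinar level 0 members rose (0.285% of all genes) or fell (0%), with 1 and 32 members at an unadjusted p under 0.05.

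**Figure D5:**
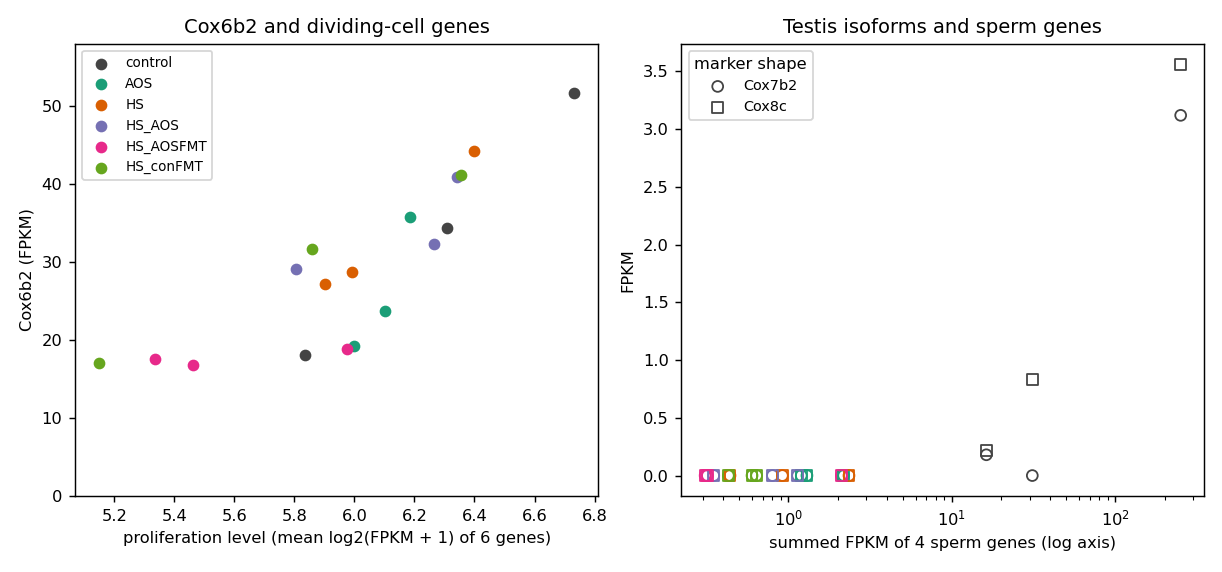
Left, Cox6b2 in FPKM against the proliferation level of each library, coloured by group; it runs from 16.8 FPKM in HS_AOSFMT 1 to 51.7 FPKM in control 1. Right, Cox7b2 (circles) and Cox8c (squares) against the summed level of 4 sperm genes (log axis), same colours; only the 3 control libraries exceed 10 FPKM of sperm genes.

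RefSeq promoter windows (GRCm38.p6, 250 bases before to 50 after a gene's start) were matched by symbol for 67 of the 87 members. Letters that match motifs of factors known for mitochondrial genes were searched on both strands. GCGCATGC, the core of the palindromic NRF1 motif, stood in 10 of 67 members (14.9%) and in 3.05% of all 27025 symbols with a window. AAGATGGC, of the YY1 motif, stood in 9 members (13.4%, 3.19% of all), CCGGAAGT, of ETS factors such as the GABP complex, in 5 (7.46%, 4.31%), the CREB motif TGACGTCA in 4 (5.97%, 2.03%) and the GC box GGGCGG in 26 (38.8%, 38.2%). None of these letter strings is contained in another on either strand. AAGATGGC contains an ATG and so can span a translation start.

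Atp5k is 1 of the 10 members with the NRF1 letters, and the windows of all 10 are shown because the set includes the member with the smallest p of the F test. Each is 30 bases, 5′ to 3′ on the gene's strand, with the letters GCGCATGC on either strand, overlaps joined, in capitals. Atp5k itself lies at chromosome 5, 108433244 to 108434448, on the minus strand, with 3 exon blocks and no exon base shared with another gene (GENCODE M21). The start of that gene model lies inside its window, which is placed by the start in RefSeq. Coordinates are GRCm38.p6.
Atp5k (chr5:108434430-108434459, minus strand): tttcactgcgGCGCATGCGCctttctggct
Atp5g2 (chr15:102671070-102671099, minus strand): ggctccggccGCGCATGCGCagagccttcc
Atp5l (chr9:44920963-44920992, minus strand): aaccaataacGCATGCGCatttcccccact
Cox6a1 (chr5:115349101-115349130, minus strand): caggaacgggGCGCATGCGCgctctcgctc
Ndufa11 (chr17:56717692-56717721, plus strand): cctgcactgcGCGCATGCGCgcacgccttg
Ndufa6 (chr15:82354356-82354385, minus strand): tccgcggtagaGCATGCGCattgcagagcc
Ndufa8 (chr2:36049328-36049357, minus strand): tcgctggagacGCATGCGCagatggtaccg
Sdhb (chr4:140961206-140961235, plus strand): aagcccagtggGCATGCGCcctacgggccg
Uqcr11 (chr10:80406807-80406836, minus strand): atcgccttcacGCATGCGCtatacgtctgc
Uqcrc1 (chr9:108936668-108936697, plus strand): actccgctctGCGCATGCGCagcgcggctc

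In Atp5k, Atp5g2, Cox6a1, Ndufa11 and Uqcrc1 the letters occur on both strands in overlap, as the palindrome GCGCATGCGC. In HS_AOSFMT against HS_conFMT, 8 of the 10 had a negative change and 2 a positive one. Of all 84 members tested, 46 had a positive change, as had 61.95% of all genes. The median of the 10 was -0.03, with a range from -0.63 (Atp5k) to 0.155 (Sdhb), and Atp5k was the single one called. The set is shown because it holds Atp5k, so these counts are no test of the letters. Of those with the palindrome, Atp5g2 had a change of -0.01, Cox6a1 of -0.06, Uqcrc1 of -0.03 and Ndufa11 of -0.23, and 0 of these were called. Ndufa3, the other member called in a comparison, has no such letters in its window but holds AAGATGGC just after its start (chromosome 7, gene at 3617373 to 3620327, plus strand), shown here with those letters in capitals.
Ndufa3 (chr7:3617384-3617413, plus strand): ccgccaagaacAAGATGGCcgggagtaagt
Its exons share 4 bases with Tfpt on the opposite strand. The 9 members with AAGATGGC had changes of -0.27 to 0.29 in the same comparison, 5 of them positive.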

How the data were processed

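RNA of mouse spleen was sequenced in 18 libraries, 3 in each of 6 groups taken from the labels. The authors deposited FPKM values per gene; that the unit is FPKM is inferred from the values, since the header names none, and length-weighted totals varied less (CV 1.61%) than plain totals (CV 6.14%). Bowtie 0.12.2 and the build mm10 are named in the submitters' processing notes; the counting program, its strand setting and the annotation were not given in the sources used here. Read counts were not used here, so the depth is unknown, and no interval from counting can be given.

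Values were taken as log2(FPKM + 1), and genes that reached 1 FPKM in 3 or more libraries were fitted with limma 3.58.1 in R 4.3.3 (6 groups, no block, trended and robust variance, 12 residual and 3.38 prior degrees of freedom). Adjusted p-values are Benjamini-Hochberg values over all 12969 genes tested, separately in each comparison, and a gene was called under 0.05. Differences are on the log2(FPKM + 1) scale, which understates changes of low genes. Statements that groups of 3 did not overlap are descriptions. Such separation also arises by chance, and its share over all genes was not counted for comparisons between groups. The members and gene lists were chosen with earlier results of these data known. Members named are, per comparison, those called (up to 10 a direction) and, with fewer than 5 called, the 3 with the smallest p in each direction; per complex, the highest and lowest mean level and the 2 smallest F test p; the isoform pairs; and up to 3 genes of a list. Others were named after their values were seen. One member that the rule names is not reported here; it remains in the fit and in the counts. Marker slopes and the proliferation covariate were added after seeing the data. Same-numbered libraries of different groups did not deviate together (median r 0.018; 15 of 45 pairs over 0.1), so numbers were not taken as pairs. Gene models are GENCODE M21 (97.1% of symbols matched), and promoter windows are RefSeq, GRCm38.p6. Alternatives covered the pseudocount, the filter, scaling, variance estimation, a replicate block, marker covariates and leaving out libraries.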

Additional observations from a re-analysis of the deposited data

How the results depend on the processing

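Atp5k in HS_AOSFMT against HS_conFMT kept its direction and call under every alternative run. Ndufa3 in HS_AOSFMT against HS did not. The number of members called in HS_AOSFMT against HS, 2, became 1 with no filter on low values, 1 with haemoglobin genes left out of the scaling, 5 with equal totals, 0 with the erythroid or the acinar level as a covariate, 0 without HS 1, HS_AOS 1 and control 1, and 0 to 1 when 1 library of the comparison was left out. A count of 2 against HS did not always mean Atp5k and Ndufa3. Under median-ratio scaling the 2 were Atp5k and Ndufa10, and under quantile normalization Atp5k and Ndufa4. With the proliferation covariate they were Ndufc2 and Atp5h, and the 5 with equal totals did not include Atp5k. Against HS_conFMT, the number of members called, 1, became 2 without haemoglobin genes, 2 with equal totals, 4 with the proliferation level as a covariate, and 1 to 2 when 1 library was left out. Against control, 1 became 2 with median-ratio scaling, without haemoglobin genes, with quantile normalization or with the acinar covariate, 0 with equal totals, the erythroid or proliferation covariate or the 2 groups alone, and 1 to 9 when 1 library was left out (9 without control 3). In the F test, 1 became 2 with median-ratio scaling, 0 with equal totals, 4 with the proliferation covariate, 0 without the 3 libraries named above, and 0 to 4 when 1 library was left out; with the acinar covariate the 1 member called was Ndufa10, not Atp5k. The cause was not tested.

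With the replicate number as a block, 2 members were called against HS_conFMT and 3 against HS. The libraries share only a number (9 of 18 were most like their own number), and every pairing is a hint from the data.

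Direction changed for Cox5b in HS against control (0.156; -0.014 with the acinar covariate, -0.016 to 0.276 when 1 library was left out), Cox6b2 in AOS against control (-0.317; 0.022 without HS 1, HS_AOS 1 and control 1, -0.708 to 0.022 when 1 library was left out) and Uqcrc2 in HS_AOSFMT against control (0.104; -0.009 with median-ratio scaling). None of these was called. Of the other alternatives for named members, 1090 kept direction and stayed called or uncalled, 33 lost the call and 24 gained it. Most named members were not called to begin with, so the 1090 largely count members that stayed uncalled. Only Atp5k and Ndufa3 had a call to lose. With 3 libraries a group and no read counts, small changes of low members such as Cox4i2 or Cox7a1 could not be resolved.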
